A study of Mus musculus with 18 samples.

Results

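The transforming growth factor beta (TGF-beta) and bone morphogenetic protein (BMP) genes described here are 9 genes of the mouse retinal pigment epithelium (RPE), chosen by symbol: the ligands Tgfb1, Tgfb2, Tgfb3, Bmp4 and Bmp7, the TGF-beta receptors Tgfbr1 and Tgfbr2, the inhibitory SMAD Smad7 and the BMP target Id1. They were 9 of 21859 rows in a table of read counts, and all 9 passed the filter on low counts that left 15944 genes for testing. The 18 bulk RNA libraries fell into 4 groups: 7 of RPE from young mice (Young), 4 from aged mice (Old), 3 from aged mice given AAV2-tTA (Old-Control) and 4 from aged mice given AAV2-tTA with TRE-OSK (Old-OSK). The AAV2 vectors derive from an adeno-associated virus; tTA is a tetracycline-controlled transactivator that drives the TRE promoter, and OSK stands for the factors Oct4 (gene Pou5f1), Sox2 and Klf4. Old-Control and Old-OSK were both from aged mice given the tTA vector, and by the labels only Old-OSK was also given the OSK vector. Ages, strain, dose, time after injection and pooling of animals were not given in the sources used here. No label said that the libraries of a group came from separate animals, so the p-values measure the spread between these libraries.

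TGF-beta and BMP ligands are secreted dimers that bind paired serine-threonine kinase receptors. TGF-beta receptors signal mainly through SMAD2 and SMAD3 and BMP receptors through SMAD1, SMAD5 and SMAD9. All of these join SMAD4 in the nucleus, while SMAD6 and SMAD7 are induced by the pathways and restrain them. In the RPE, TGF-beta is known as a driver of the change from epithelial to mesenchymal character in scarring, and BMP4 as a brake on RPE proliferation. The ID proteins are inhibitors of basic helix-loop-helix transcription factors and textbook readouts of BMP signalling.

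Upstream sequences are shown for ligand genes, because Tgfb1 and Tgfb2 encode related proteins and behaved differently across these libraries. RefSeq promoter entries (GRCm38.p6) were matched for 5 of the 9 genes: Tgfb1, Tgfb2, Tgfbr1, Tgfbr2 and Bmp4. The 250 bases before the annotated start of 3 ligand genes follow, with GC boxes (GGGCGG on either strand, the motif of Sp and Krüppel-like factors) in capitals. The intervals are chr7:25686752-25687001 on the plus strand for Tgfb1, chr1:186705990-186706239 on the minus strand for Tgfb2 and chr14:46390670-46390919 on the minus strand for Bmp4, each written 5′ to 3′ on the gene's strand.
Tgfb1: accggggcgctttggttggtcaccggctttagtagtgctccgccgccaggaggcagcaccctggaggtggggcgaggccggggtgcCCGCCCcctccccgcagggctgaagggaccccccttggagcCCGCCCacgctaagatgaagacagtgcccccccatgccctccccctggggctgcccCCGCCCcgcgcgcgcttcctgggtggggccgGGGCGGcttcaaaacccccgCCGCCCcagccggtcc
Tgfb2: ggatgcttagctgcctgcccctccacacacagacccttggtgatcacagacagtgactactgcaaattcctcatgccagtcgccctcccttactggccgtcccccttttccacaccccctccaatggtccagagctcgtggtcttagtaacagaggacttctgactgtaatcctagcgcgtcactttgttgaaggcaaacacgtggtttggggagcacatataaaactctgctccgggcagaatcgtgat
Bmp4: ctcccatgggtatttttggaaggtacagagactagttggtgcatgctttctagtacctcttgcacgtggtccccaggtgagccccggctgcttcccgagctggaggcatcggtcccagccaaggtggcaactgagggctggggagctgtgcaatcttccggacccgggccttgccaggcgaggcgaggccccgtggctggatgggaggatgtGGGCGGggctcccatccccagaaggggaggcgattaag

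The GC box occurred 5 times in the Tgfb1 window, 1 time in that of Bmp4 and 0 times in that of Tgfb2, and 32.7% of all 32851 windows of this length held it at least once. The SMAD-binding letters CAGAC, searched on both strands, occurred 2 times upstream of Tgfb2 and 0 times upstream of Tgfb1 and Bmp4, and 42.2% of all windows held them. The 2 motifs can share at most 1 letter, and neither count shows that a factor binds there. In GRCm38 (GENCODE M21) the Tgfb1 gene spans chr7:25687002-25705077 on the plus strand and Tgfb3 chr12:86056745-86079041 on the minus strand.

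Library totals ranged from 18104828 to 32348136 counts. All 10 RPE markers had counts in every library, and their summed level ran from 15149 to 65312 CPM (counts scaled to library size by the TMM method). On the leading principal component of log2 CPM (46.5% of the variance), scores were -99.8 to -6.55 in Young and 45.7 to 96.0 in Old-OSK. Replicate 4 of Old (73.2) and replicate 2 of Old-Control (61.8) had scores in the Old-OSK range, whereas the rest of Old and Old-Control scored at most 21.8. These 2 libraries also had the lowest summed RPE marker level of their groups, 26920 CPM and 20188 CPM. Summed rod markers were highest in Old-Control replicate 2 (17995 CPM) and Old-OSK replicate 4 (15054 CPM), followed by Old-OSK replicate 2 (7463 CPM). In Old replicate 4 they stood at 4960 CPM. Cone markers summed to 280 CPM in Old-Control replicate 2 and 295 CPM in Old-OSK replicate 4. The part of rod and cone transcripts in the values below was not tested. Pou5f1 lay between 50.1 and 97.4 CPM in Old-OSK and at most at 1.06 CPM in Old-Control, and Sox2 between 70.0 and 115 CPM against at most 15.9 CPM. Klf4 lay between 155 and 432 CPM in Old-OSK and between 24.2 and 33.6 CPM in Old-Control, but reached 216 CPM in Old. 6 libraries (Young replicates 5 to 7, Old-Control replicates 2 and 3, Old-OSK replicate 4) carry a letter M in their names that the labels do not explain. Because the samples are bulk tissue, fewer cells of a type and less RNA per cell cannot be told apart in any of the levels below.

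Per kilobase of exon (union of GENCODE M21 exons), Bmp4 was the most abundant of the 9 genes in Young RPE, at 145 ± 26.5 CPM per kb (SD, n = 7). Bmp7 followed with 45.6 ± 4.12 CPM per kb and Id1 with 29.2 ± 10.9 CPM per kb. Tgfb2 stood at 15.5 ± 7.74 CPM per kb and Tgfb3 at 9.26 ± 1.41 CPM per kb, with overlapping spreads. The receptors and Smad7 lay close together: Tgfbr1 at 6.60 ± 1.30 CPM per kb, Tgfbr2 at 4.75 ± 0.538 CPM per kb and Smad7 at 4.69 ± 0.433 CPM per kb. Tgfb1 was the least abundant at 1.16 ± 0.226 CPM per kb. Among the 5 ligand transcripts of Young RPE the BMP ligands thus lay above the TGF-beta ligands on this scale.

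**Figure D1:**
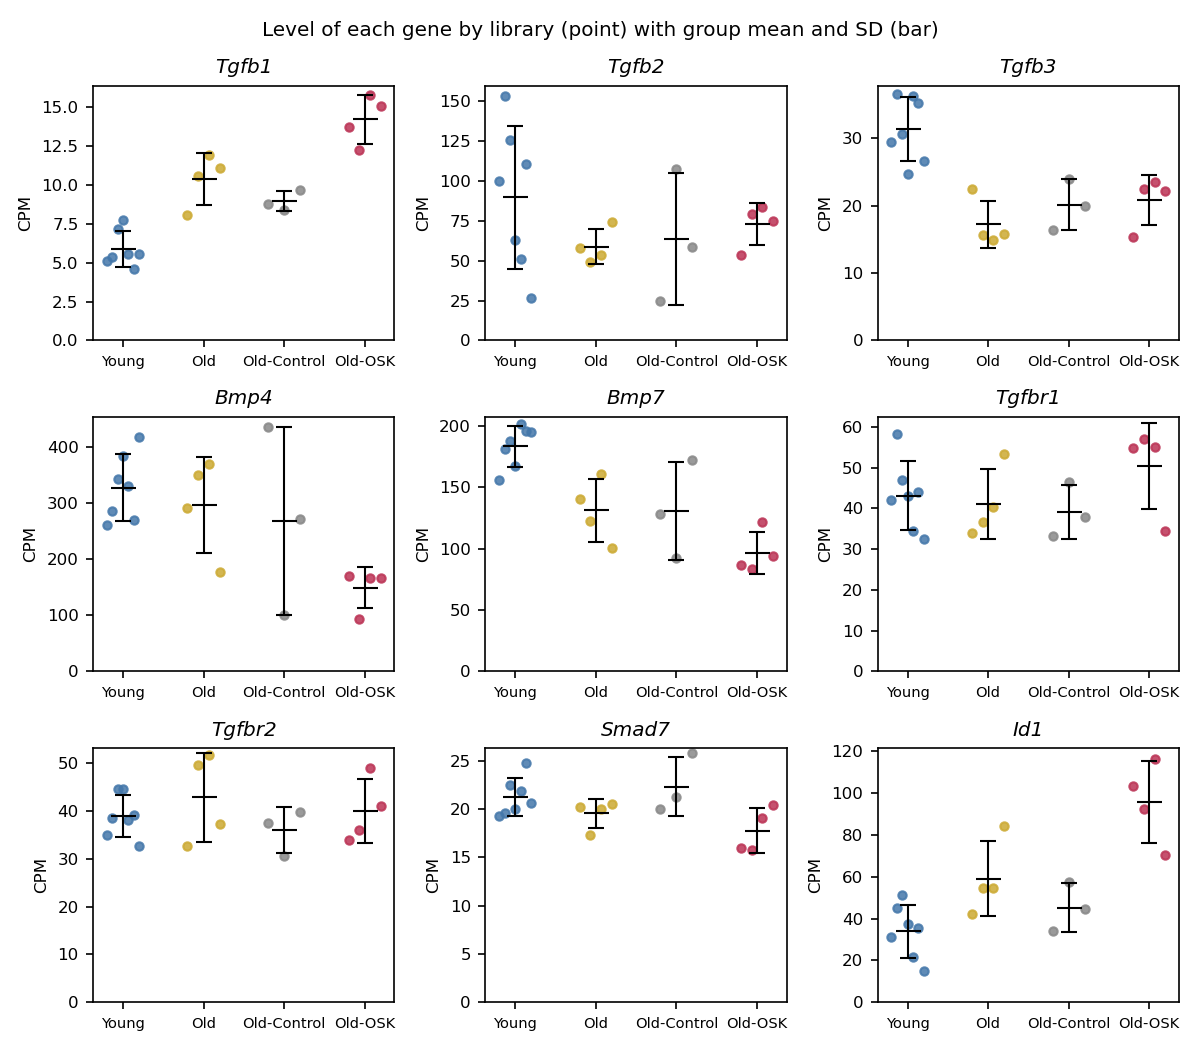
Level of each of the 9 genes in CPM (vertical axes, linear, starting at 0) in the 4 groups, one point per library, with the group mean and its SD as bars. Tgfb1 libraries of Old lie above and Tgfb3 libraries of Old lie below all 7 Young libraries, and the 4 Old-OSK libraries of Tgfb1 and of Id1 lie above the 3 Old-Control libraries.

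The comparison of Old with Young asks how these transcripts differ with age in RPE that received no vector. Tgfb1 rose and Tgfb3 fell, while the other 7 genes did not pass edgeR's test. Across all 15944 genes 9.56% were called (edgeR quasi-likelihood test, Benjamini-Hochberg adjusted p under 0.05), 5.4% higher and 4.16% lower in Old. Among the 9 genes, 1 was called higher and 1 lower, 3 had a positive log2 fold change, and their median was -0.12 against -0.0044 over all genes. An unadjusted p under 0.05 was found for 4 of the 9 and for 29% of all genes.

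Tgfb1 encodes the TGF-beta isoform best known from immune regulation and fibrosis. In Young it had a lowest value of 4.60 CPM, a median of 5.56 CPM and a highest value of 7.72 CPM over 7 libraries. The 4 Old libraries had 8.05, 10.6, 11.9 and 11.1 CPM. All 4 Old libraries lay above all 7 Young libraries. Groups apart in this way, in either direction, occurred for 2 of the 9 genes (Tgfb1 and Tgfb3) and for 9.3% of all tested genes. The group means were 10.4 ± 1.66 CPM in Old (SD, n = 4) and 5.87 ± 1.14 CPM in Young (SD, n = 7), and Old was higher by 0.82 on the log2 scale (SE 0.15, 95% interval 0.51 to 1.14, edgeR adjusted p = 0.00433). The call held in all 11 fits that left out a library, with adjusted p from 0.00218 to 0.0197, and without Old replicate 4 and Old-Control replicate 2 together it was 0.81 (adjusted p = 0.0167).

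Tgfb3, the isoform known for its part in palate closure, went the other way. Its Young libraries ran from 24.7 CPM through a median of 30.7 CPM to 36.6 CPM. The Old libraries had 22.5, 15.7, 14.9 and 15.8 CPM. Old replicate 1 sat close below the lowest Young library and the other 3 Old libraries far below it, so the groups did not overlap. The log2 fold change was -0.86 (SE 0.16, 95% interval -1.20 to -0.53, edgeR adjusted p = 0.00491), between 17.2 ± 3.51 CPM in Old and 31.3 ± 4.78 CPM in Young. Tgfb3 was likewise called in all 11 fits without a library, with adjusted p from 0.00203 to 0.0254, and without both libraries that stood apart it was -0.80 (adjusted p = 0.0205).

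Both calls also held with the letter M as a covariate, with log2 fold changes of 0.78 for Tgfb1 (adjusted p = 0.0155) and -0.79 for Tgfb3 (adjusted p = 0.0167). Within the libraries without M (4 Young, 4 Old) the log2 fold changes were 0.71 and -0.81 with adjusted p of 0.0935 and 0.0632, short of the threshold, and no Old library carries the M. Of 9 immune markers, 7 (Lyz2, Cd68, Tyrobp, C1qa, C1qb, Cx3cr1 and Aif1) were called higher in Old, and none of the 9 was at 0 in any library. The summed level of these markers lay between 653 and 1108 CPM in Old and between 476 and 676 CPM in Young. Their part in the Tgfb1 result was not tested. Of 9 stromal markers, Col1a2 and Pdgfrb were called lower in Old, none was at 0 in any library, and the list had sums of 123 to 210 CPM against 176 to 358 CPM in Young, with a median log2 fold change of -0.59. Of 4 tested melanocyte and Schwann cell markers 1 (Ednrb) was called lower, with a median of -0.75, and of 6 Müller glia markers 1 (Gfap), with a median of -0.31. Rod, cone and endothelium markers had positive medians of 1.44, 0.88 and 0.68, with 0 called. Summed rod markers lay between 1963 and 7067 CPM in Old and between 144 and 2843 CPM in Young. RPE, smooth muscle and red blood cell markers had medians of -0.31, -0.20 and -0.22, also with 0 called. The part of any of these lists in the higher or lower genes was not tested.

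Tgfb2, the isoform long associated with the eye, varied widely within groups. Among Young libraries it had a lowest value of 26.4 CPM, a median of 99.6 CPM and a highest value of 153 CPM. The 4 Old libraries had 58.2, 49.0, 53.3 and 74.3 CPM. Every Old library lay inside the Young range, and the log2 fold change was -0.61 (SE 0.40, 95% interval -1.46 to 0.24, edgeR adjusted p = 0.329).

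The make-up of the TGF-beta ligand transcripts can be read per kilobase within each library. Tgfb1 took 5.04 ± 2.19% of the summed Tgfb1, Tgfb2 and Tgfb3 level in Young (SD, n = 7) and 12.1 ± 2.73% in Old (SD, n = 4). Tgfb2 took 56.4 ± 13.4% and 58.3 ± 4.66%, and Tgfb3 38.6 ± 11.8% and 29.6 ± 5.30%. The ratio of Tgfb3 to Tgfb1 per kilobase lay between 4.76 and 11.4 in Young. In Old it lay between 1.87 and 4.16, in Old-Control between 2.79 and 4.26 and in Old-OSK between 1.67 and 2.73. All 11 libraries of aged mice thus had a lower ratio than any of the 7 Young libraries. This is a restatement of the opposite changes of Tgfb1 and Tgfb3 and was not tested separately.

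**Figure D2:**
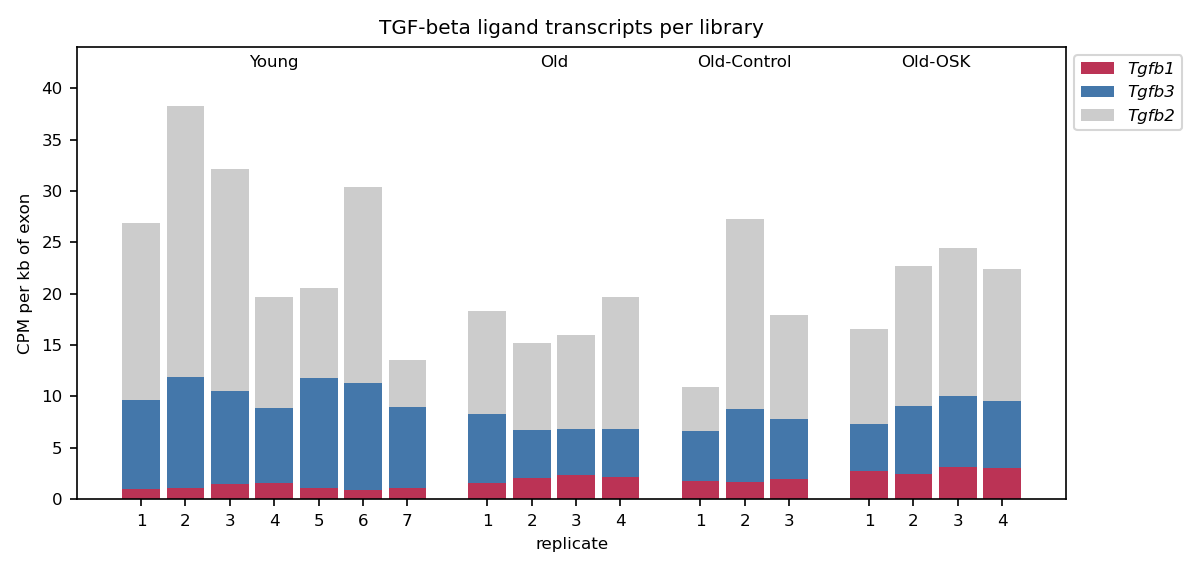
Summed level of the 3 TGF-beta ligand transcripts in CPM per kilobase of exon (vertical axis) in each of the 18 libraries, stacked as Tgfb1, Tgfb3 and Tgfb2 and ordered by group and replicate. The Tgfb1 segment is thinnest in the 7 Young libraries. Most of the difference in total height within Young comes from Tgfb2, which runs from 4.56 to 26.4 CPM per kb there.

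Of the BMP ligands, Bmp7 had 140, 123, 161 and 101 CPM in the 4 Old libraries. In Young it ran from 156 CPM through a median of 188 CPM to 201 CPM. Old replicate 3 reached into the Young range and the other 3 lay below it. The log2 fold change of -0.48 (SE 0.16, 95% interval -0.81 to -0.15) had an edgeR adjusted p of 0.0598 and was not called, although a fit of Old and Young alone and DESeq2 called it (adjusted p from 0.0354 to 0.273 over the settings that left out no single library). Bmp4 had 291, 350, 369 and 178 CPM in Old. Its Young libraries ran from 261 to 418 CPM with a median of 330 CPM. Only Old replicate 4 left the Young range, and the log2 fold change was -0.14 (95% interval -0.76 to 0.48, adjusted p = 0.789).

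The TGF-beta receptor genes showed no call by edgeR or DESeq2. Tgfbr1, the type I receptor kinase, had 34.0, 36.5, 40.2 and 53.4 CPM in Old, all within the 32.5 to 58.3 CPM of Young (log2 fold change -0.07, 95% interval -0.43 to 0.29, edgeR adjusted p = 0.82). Tgfbr2, the type II receptor that binds ligand first, had 32.6, 49.6, 51.5 and 37.3 CPM in Old against 32.7 to 44.5 CPM in Young (0.14, 95% interval -0.15 to 0.42, adjusted p = 0.538). Of its Old libraries 2 lay above the Young range, 1 within it and 1 just below it. Smad7, which recruits ubiquitin ligases to the TGF-beta receptor, had 20.3, 17.4, 20.0 and 20.5 CPM in Old against 19.3 to 24.8 CPM in Young (-0.12, 95% interval -0.34 to 0.10, adjusted p = 0.479). For Smad7, Old replicate 2 lay below the Young range and the other 3 within it.

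Id1 ran from 14.8 CPM through a median of 35.7 CPM to 51.3 CPM in Young. The Old libraries had 42.3, 54.5, 54.5 and 84.3 CPM, of which 3 lay above every Young library. It differed by 0.80 on the log2 scale (SE 0.27, 95% interval 0.23 to 1.37, edgeR adjusted p = 0.0669), not called by edgeR, and DESeq2 called it (adjusted p = 0.0339). Old replicate 4 was the highest, and without it the value was 0.57 (adjusted p = 0.313). Without Young replicate 3 it was 0.93 (adjusted p = 0.034) and without Old replicate 1 it was also 0.93 (adjusted p = 0.0447).

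A wider list of 89 TGF-beta and BMP pathway genes, the 9 included, places these values among their partners. Of these, 78 were tested. In Old against Young 1 was called higher (Tgfb1) and 8 lower, and the median log2 fold change was -0.13. Of all tested genes 9.56% were called, 5.4% higher and 4.16% lower. The 8 lower genes spread over ligands (4), receptors (2) and extracellular inhibitors (2). None of the 6 signalling SMADs, 10 inhibitory SMADs and intracellular inhibitors, 10 latent-complex genes or 11 target genes was called by edgeR. DESeq2 called Ltbp3 and Nrros of the latent complex, Tgif1 of the intracellular inhibitors and the targets Tgfbi and Id1.

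Sostdc1, a secreted BMP antagonist, had the lowest p on the list. It had 113, 165, 123 and 99.9 CPM in Old and ran from 249 to 403 CPM in Young with a median of 304 CPM, which is -1.36 on the log2 scale (edgeR adjusted p = 0.0037, SE 0.24). Chrd, which encodes the BMP antagonist chordin, fell by 0.75 on the log2 scale (adjusted p = 0.0342), with Young at 26.8 ± 4.26 CPM and Old at 16.0 ± 3.85 CPM. Thus 2 BMP antagonists were among the 8 lower genes.

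Bmp2, a close relative of Bmp4, stood at 154 ± 9.61 CPM in Young, and Old fell to 101 ± 25.9 CPM (-0.62 on the log2 scale, edgeR adjusted p = 0.0343). The BMP receptors Bmpr1a (type I) and Bmpr2 (type II) fell by less. Bmpr1a had 124, 112, 120 and 121 CPM in Old against 130 to 163 CPM in Young (-0.29, SE 0.07, adjusted p = 0.0205). Bmpr2 had 124, 133, 129 and 107 CPM against 140 to 163 CPM (-0.30, SE 0.08, adjusted p = 0.0254). Inha, the inhibin alpha subunit that opposes activins, fell at a low level from 7.99 ± 2.69 CPM to 3.08 ± 0.627 CPM (-1.37, SE 0.29, adjusted p = 0.00944).

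For these 6 genes, named for their low p in the same libraries, the Old libraries lay below all Young libraries. Groups apart in either direction occurred for 11 of the 78 tested list genes and for 9.3% of all genes. The remaining gene called lower, Gdf10, stands outside the naming rule and its groups overlapped (-1.47, adjusted p = 0.046). Sostdc1 and Inha were called in all 11 fits without a library. Bmpr1a and Bmpr2 were each called in 8 of the 11, Chrd in 5 and Bmp2 in 3. Without Old replicate 4 the adjusted p was 0.12 for Bmpr2, 0.15 for Chrd and 0.156 for Bmp2, and for Bmpr1a it was highest without Old replicate 2, at 0.0687. The list held 4 called genes without Young replicate 5 (4.06% of all genes called) or without Old replicate 4 (2.47%), and 5 without Old replicate 2 (3.85%). DESeq2 called 16 of the list, 5 higher and 11 lower, and 15.4% of all genes. With the letter M as a covariate 5 of the list and 3.76% of all genes were called. Within the libraries without M only Sostdc1 of the list was called, where 1.26% of all genes were.

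Among the genes higher in Old, the lowest p outside the 9 belonged to Tgfbi, a secreted matrix protein induced by TGF-beta, and Tgif1, a SMAD corepressor. Neither was called by edgeR, and DESeq2 called both. Tgfbi had 9.20, 29.7, 34.4 and 158 CPM in Old against 4.89 to 36.1 CPM in Young (1.96, adjusted p = 0.0603), a value that dropped to 0.72 without Old replicate 4 (adjusted p = 0.559) and was called without Young replicate 3 (2.35, adjusted p = 0.0279) or Old replicate 1 (2.31, adjusted p = 0.0222). Tgif1 had 12.2, 13.5, 10.4 and 9.74 CPM in Old, all above the 6.07 to 9.66 CPM of Young (0.48, adjusted p = 0.0669).

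**Figure D3:**
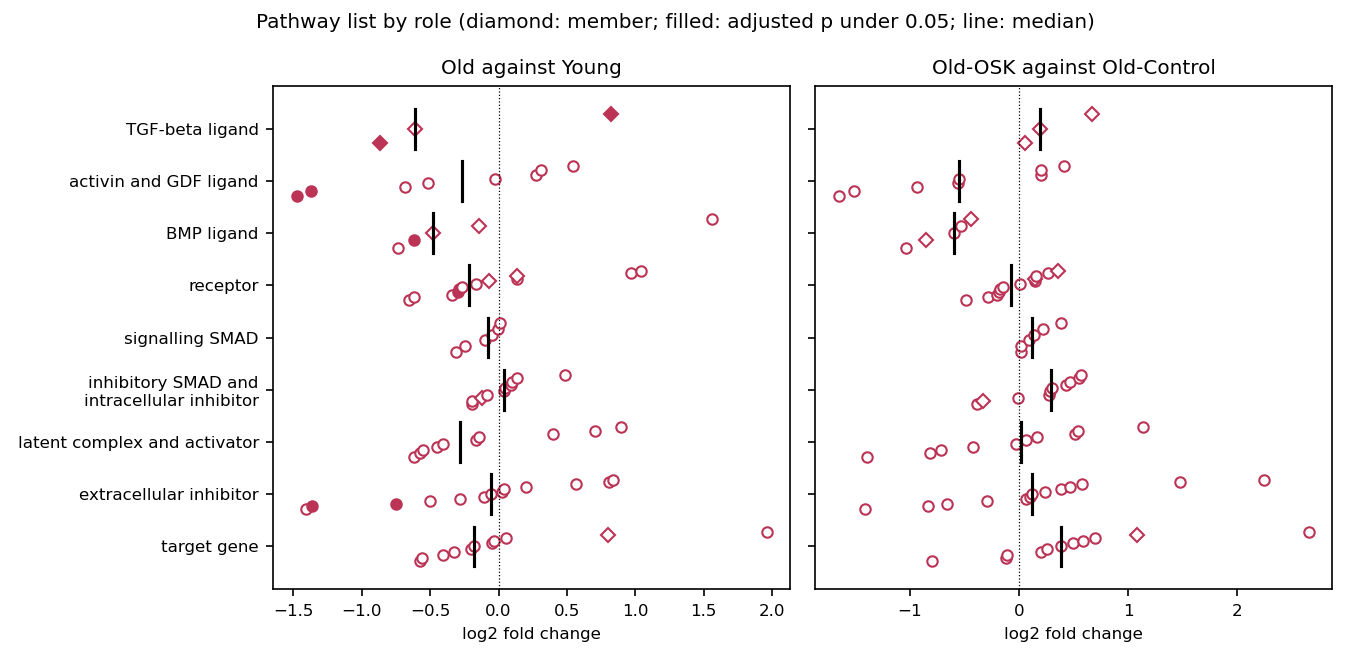
Log2 fold changes (horizontal axes) of the 78 tested pathway genes by role, with age on the left and OSK vector on the right, diamonds for the 9 genes, filled symbols for adjusted p under 0.05 and a line at each role's median. Filled symbols occur only on the left, 1 to the right of 0 (Tgfb1) and 8 to its left; on the right all 5 tested BMP ligands lie left of 0.

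The comparison of Old-OSK with Old-Control asks what differs with the OSK genes among aged mice that were all given the tTA vector. None of the 9 genes and none of the 78 tested pathway genes was called by edgeR, where 0.728% of all genes were, 0.408% higher and 0.32% lower. DESeq2 called 10.1% of all genes, and among them 2 of the 9, Tgfb1 and Id1, both higher in Old-OSK, and 11 of the list, 7 higher and 4 lower. At an unadjusted p under 0.05 there were 5 of the 9, against 26.3% of all genes. For 2 of the 9 genes (Tgfb1 and Id1) the ranges of the 2 groups did not overlap, which held for 12.4% of all genes. The median log2 fold change of the 9 was 0.15, against -0.028 over all genes.

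Tgfb1 had 13.7, 12.3, 15.8 and 15.1 CPM in Old-OSK and 8.78, 8.39 and 9.64 CPM in Old-Control. All 4 Old-OSK libraries were also above the highest Old library (11.9 CPM). The log2 fold change was 0.67 (SE 0.19, 95% interval 0.28 to 1.06, edgeR adjusted p = 0.0724). With DESeq2 it was 0.68 (adjusted p = 0.0109, the lowest over the settings that left out no single library, where the highest was 0.189). Tgfb1 was called in 0 of the 7 fits without a library, with edgeR adjusted p from 0.0624 to 0.332, the highest without Old-Control replicate 1. The order of the group means was Young, Old-Control, Old, Old-OSK, of which Old-Control and Old overlapped. The summed immune markers lay between 695 and 860 CPM in Old-OSK and between 802 and 1057 CPM in Old-Control. The 9 markers had a median log2 fold change of 0.38 and 0 of them were called. Their part in the Tgfb1 values was not tested.

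Id1 had 103, 92.2, 116 and 70.4 CPM in Old-OSK and 33.8, 57.5 and 44.4 CPM in Old-Control. The lowest Old-OSK library, replicate 4, still lay above the highest Old-Control library, replicate 2. Its log2 fold change was 1.08 (SE 0.34, 95% interval 0.35 to 1.81, edgeR adjusted p = 0.0901), not called. It was called by DESeq2 (1.09, adjusted p = 0.0278) and without Old-Control replicate 2 (1.26, adjusted p = 0.041), and when replicate numbers entered as a block it was 1.23 (adjusted p = 0.0506). Dropping replicate 1 of Old-Control gave 0.91 (adjusted p = 0.366). With the letter M as a covariate the value was 0.82 (adjusted p = 0.238). The other ID genes gave log2 fold changes of -0.11 for Id2, 0.26 for Id3 and 0.59 for Id4 (adjusted p = 0.768, 0.714 and 0.288), and for all 3 the groups overlapped.

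The BMP ligands had lower means in Old-OSK. Bmp4 had 170, 93.8, 166 and 166 CPM there and 435, 100 and 271 CPM in Old-Control. Old-Control replicate 2 lay within the Old-OSK range and the other 2 far above it. The log2 fold change was -0.85 (SE 0.36, 95% interval -1.60 to -0.10, edgeR adjusted p = 0.147). Dropping replicate 2 of Old-Control gave -1.27 (adjusted p = 0.0114), whereas dropping replicate 1 gave -0.32 (adjusted p = 0.692).

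Bmp7 had 86.9, 83.4, 121 and 94.2 CPM in Old-OSK against 128, 92.3 and 172 CPM in Old-Control, again with replicate 2 of the controls among the Old-OSK values. Its log2 fold change was -0.44 (SE 0.19, 95% interval -0.83 to -0.04, adjusted p = 0.153), and -0.66 without that library (adjusted p = 0.0241). Dropping replicate 3, the highest control, gave -0.19 (adjusted p = 0.583). All 5 tested BMP ligands had a negative log2 fold change, with a median of -0.60. The summed RPE markers were likewise low in Old-OSK (15149 to 29759 CPM) and in Old-Control replicate 2 (20188 CPM). They stood at 62573 and 53641 CPM in Old-Control replicates 1 and 3. The order of single libraries differed, since Bmp7 was highest in Old-Control replicate 3 and the RPE sum in replicate 1. The 10 RPE markers had a median log2 fold change of -0.99 and 0 of them were called. Their part in the lower BMP ligand values was not tested.

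The sum of the 9 listed BMP ligand transcripts per kilobase was 286 ± 34.6 CPM per kb in Young, 224 ± 50.4 in Old, 218 ± 99.1 in Old-Control and 128 ± 28.5 in Old-OSK. Bmp4 made up 50.7 ± 3.75% of that sum in Young, 58.3 ± 5.66% in Old, 51.5 ± 12.1% in Old-Control and 51.6 ± 2.20% in Old-OSK. Bmp4 thus stayed the main BMP ligand transcript in each group, with spreads that overlapped.

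Of the remaining genes, Smad7 had 16.0, 15.7, 19.0 and 20.4 CPM in Old-OSK and 20.0, 21.2 and 25.8 CPM in Old-Control. Only Old-OSK replicate 4 reached the control range. Smad7 had a log2 fold change of -0.33 (SE 0.12, 95% interval -0.59 to -0.06, edgeR adjusted p = 0.123), and -0.44 without Old-OSK replicate 4 (adjusted p = 0.044). Dropping replicate 3 of Old-Control gave -0.21 (adjusted p = 0.382). Its relative Smad6, the inhibitor that acts mainly on BMP receptors, had a value of 0.30 (adjusted p = 0.326).

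Tgfbr1 had 54.8, 57.0, 55.1 and 34.5 CPM in Old-OSK against 33.2, 46.3 and 38 CPM in Old-Control. Old-OSK replicates 1 to 3 lay above all controls and replicate 4 near the lowest control (log2 fold change 0.36, 95% interval -0.08 to 0.81, adjusted p = 0.292). Tgfbr2 had 33.8, 35.9, 48.9 and 41.0 CPM against 37.5, 30.6 and 39.7 CPM (0.15, 95% interval -0.20 to 0.50, adjusted p = 0.626). Tgfb2 had 53.7, 78.9, 83.4 and 74.9 CPM against 24.8, 107 and 58.8 CPM (0.19, 95% interval -0.83 to 1.21, adjusted p = 0.857), with Old-Control replicates 1 and 2 at 24.8 and 107 CPM on either side of all Old-OSK libraries. Tgfb3 had 15.4, 22.4, 23.4 and 22.1 CPM against 16.4, 24.0 and 19.9 CPM (0.05, 95% interval -0.35 to 0.45, adjusted p = 0.901). Tgfb3 values in Old-OSK therefore stayed below the lowest Young library (24.7 CPM) in all 4 cases.

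**Figure D4:**
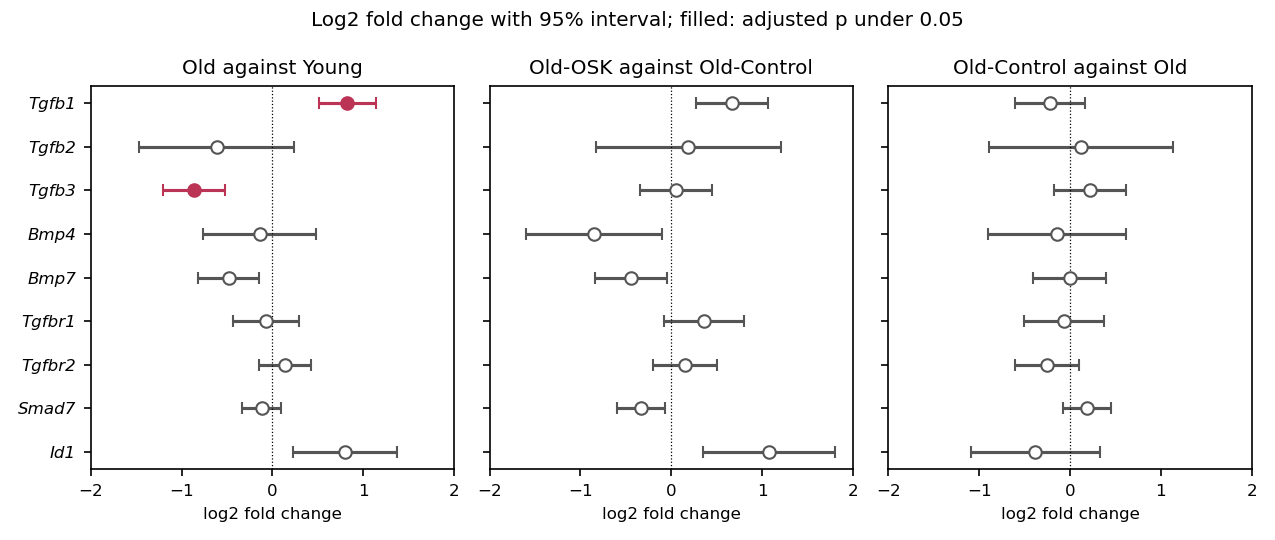
Log2 fold change (horizontal axes) with its 95% interval for each of the 9 genes in 3 panels, from left to right the age, OSK and control-vector comparisons; filled points have an adjusted p under 0.05. Only Tgfb1 (0.82) and Tgfb3 (-0.86) in Old against Young are filled, and the intervals of Tgfb2 span 0 in all 3 comparisons.

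Among the wider list, the lowest p in this comparison belonged to Itgb8, the integrin subunit that releases active TGF-beta from its latent complex. It had 1308, 783, 1184 and 1119 CPM in Old-OSK and 4680, 1121 and 2831 CPM in Old-Control, where replicate 2 again lay among the Old-OSK values (log2 fold change -1.39, SE 0.33, edgeR adjusted p = 0.0594). Without that library Itgb8 was called at -1.80 (adjusted p = 0.00276), whereas dropping the highest control, replicate 1, gave -0.85 (adjusted p = 0.345). Gdf11, a ligand that signals through activin receptors, had a value of -0.93 (adjusted p = 0.0851). Fst, the activin antagonist follistatin, stood at 2.52, 4.86, 5.97 and 2.08 CPM in Old-OSK and at 1.02, 1.01 and 0.397 CPM in Old-Control (2.24, SE 0.56, adjusted p = 0.0631). Smurf1, a ubiquitin ligase for BMP SMADs, stood at 36.5 ± 3.04 CPM against 26.4 ± 3.38 CPM (0.46, adjusted p = 0.0683). The groups did not overlap for Fst and Smurf1, which held for 11 of the 78 tested list genes and for 12.4% of all genes. Gdf11 (-1.25), Fst (2.40) and Smurf1 (0.51) were also called without Old-Control replicate 2, with adjusted p of 0.00816, 0.0242 and 0.0221. Of all genes 17.9% were called in that fit. Without Old-Control replicate 1 the edgeR adjusted p was 0.359 for Gdf11, 0.253 for Fst and 0.340 for Smurf1. Each of them was called in 2 of the 7 fits without a library. All 4 genes were called without Old-OSK replicate 4 (11% of all genes called) and by DESeq2 (10.1%).

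When replicate numbers entered the fit as a block (3 pairs), 0 of the 9 genes, 4 of the list and 3.02% of all genes were called. They are named here after their values were seen: Tgfbi (log2 fold change 3.04, adjusted p = 0.0468) and Ltbp4, a latent TGF-beta binding protein (1.23, adjusted p = 0.0445), were higher, and Bmp6 (-1.15, adjusted p = 0.0471) and Nog, the BMP antagonist noggin (-1.62, adjusted p = 0.0468), were lower. Without Old-Control replicate 2, 3 of the 9 (Bmp4 and Bmp7 lower, Id1 higher) and 18 of the list were called, 6 higher and 12 lower, where 17.9% of all genes were. Without Old-OSK replicate 4, 1 of the 9 (Smad7) and 9 of the list were called, where 11% of all genes were. The other 5 fits without a library called 0 of the 9 and 0 of the list, where 0.0804% to 0.42% of all genes were. Leaving out Old replicate 4 and Old-Control replicate 2 together, an alternative chosen after seeing the data, gave 3 of the 9 and 22 of the list, 8 higher and 14 lower, and 23.3% of all genes. Among the libraries without M there is 1 Old-Control library (replicate 1), and among those with M 1 Old-OSK library (replicate 4), so no fit was made within them. Tgfb1 was higher in Old-OSK in both sets, with 12.3 to 15.8 CPM against 8.78 CPM without M and 15.1 CPM against 8.39 and 9.64 CPM with M. Id1 was as well, with 92.2 to 116 CPM against 33.8 CPM and 70.4 CPM against 57.5 and 44.4 CPM. For Bmp4 the Old-OSK library with M (166 CPM) lay between the Old-Control libraries with M (100 and 271 CPM).

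The last comparison, Old-Control with Old, sets aged RPE given AAV2-tTA against aged RPE that received no vector. Injection, the AAV2 particle and tTA cannot be told apart in it. Old-Control replicates 2 and 3 also carry the letter M, which no Old library does. None of the 9 genes was called and 0 had an unadjusted p under 0.05, where edgeR called 0% of all genes and 3.74% had an unadjusted p under 0.05. DESeq2 also called 0 of the 9 and 0 of the list. The log2 fold changes of the 9 lay between -0.38 (Id1, 95% interval -1.10 to 0.33) and 0.22 (Tgfb3, 95% interval -0.17 to 0.62), with adjusted p of at least 0.900. Their intervals were wide for Tgfb2 (-0.89 to 1.13) and Bmp4 (-0.90 to 0.62). On the wider list 0 genes were called and 3 of 78 had an unadjusted p under 0.05. Gdf15, a stress-induced cytokine of the family, ranked first with 7.0, 4.60 and 4.76 CPM in Old-Control against 2.16, 1.99, 3.15 and 3.59 CPM in Old, a difference of 1.00 on the log2 scale (adjusted p = 0.900). Pmepa1, a TGF-beta-induced inhibitor of SMAD activation, followed with 0.60, and Ltbp4 (-0.74) and Tgfbi (-1.52) had the lowest p among the lower genes. Single libraries moved these values: Pmepa1 was 0.17 without Old-Control replicate 2, Tgfbi -0.28 without Old replicate 4 and Ltbp4 -0.47 without Old replicate 2. Id1 was -0.16 without Old replicate 4, -0.21 without Old-Control replicate 1 and -0.58 without Old-Control replicate 2.

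The age comparison and the OSK comparison share no library, so their values can be set side by side. The share of all genes with the same sign in both was not computed. RPE markers had negative medians in both (-0.31 and -0.99), and their part in the signs below was not tested. Tgfb1 and Id1 had positive values in Old against Young (0.82 and 0.80) and in Old-OSK against Old-Control (0.67 and 1.08). Bmp7, Bmp4 and Smad7 had negative values in both (-0.48 and -0.44 for Bmp7, -0.14 and -0.85 for Bmp4, -0.12 and -0.33 for Smad7). Tgfb3 had -0.86 with age and 0.05 after OSK. Of these values edgeR called only the age changes of Tgfb1 and Tgfb3, and DESeq2 also called those of Bmp7 and Id1 with age and of Tgfb1 and Id1 after OSK.

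The patterns most like those of the 2 called genes were sought among genes whose mean log2 CPM reached 3, by Pearson r of log2 CPM over the 18 libraries. For Tgfb1 they were H2-K1 (r = 0.935, Spearman rho 0.936), Cx3cl1 (0.922, 0.92) and H2-D1 (0.921, 0.915), that is, 2 class I histocompatibility genes, whose reads can be shared between related genes, and a chemokine. After the group means were subtracted, r was 0.502, 0.519 and 0.43. For Tgfb3 they were Ints7 (0.909, 0.922), Bmp1 (0.902, 0.926), a procollagen protease that despite its symbol is no BMP ligand, and Serpine2 (0.875, 0.876), a protease inhibitor, with r of 0.753, 0.733 and 0.631 after subtraction. These are descriptions over libraries that share groups and depth.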

How the data were processed

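RNA was taken from mouse RPE with TRIzol, and libraries were made with a SMART-Seq v4 kit and Nextera XT, per the labels' protocols; this kit keeps no strand. The deposited values are raw read counts per gene, made by the authors with STAR 2.7.1a and featureCounts 1.6.2, per the submitters' processing notes, which list GRCm38 (mm10) beside GRCh38 (hg38). The annotation was not given in the sources used here. Reads of related or overlapping genes may be shared or lost.

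Counts were tested with edgeR 4.0.16 in R 4.3.3 (filterByExpr with a minimum count of 10 and a minimum total of 15, TMM scaling, quasi-likelihood F test on 4 group means over 18 libraries, Benjamini-Hochberg adjustment over 15944 genes, threshold 0.05). CPM are TMM-scaled, and log2 CPM used a prior count of 2. CPM per kb divide by the union of exons in GENCODE M21, which may differ from the authors' annotation. The edgeR fit was tried on simulated counts with changes planted in Old and tested in Old against Young alone. Neither libraries that stand apart nor an effect of the letter M were simulated, and the other comparisons were not tried. Alternatives included DESeq2 1.42.0, other filters and scaling, the letter M, the replicate number as a block and leaving out libraries.

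The 9 genes and the lists were chosen with earlier results of these data known. Of the other pathway genes, at most the 6 called with the lowest p in each direction were named, or, where fewer than 2 were called, the 2 with the lowest p. The block alternative treated libraries of the same replicate number as matched in every comparison, which no label states. Deviations from group means correlated at 0.103, 0.421 and 0.339 between Old-OSK and Old-Control libraries of the same number. Old-OSK replicate 1 correlated more with Old-Control replicate 3 (0.392) than with its own number. Between Old and Young libraries of the same number the values were -0.0497, -0.0191, 0.144 and -0.193.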

Additional observations from a re-analysis of the deposited data

Results flagged for a closer look

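In groups of 4 to 7 libraries, the highest or lowest library was compared with its nearest neighbour relative to the group's range, and 8 of 78 gene and group combinations stood out at a level that chance reaches in about 1 of 20. Tgfb3 stood at 22.5 CPM in Old replicate 1 (next 15.8 CPM) and at 15.4 CPM in Old-OSK replicate 1 (next 22.1 CPM). Bmp4 stood at 93.8 CPM in Old-OSK replicate 2 (next 166 CPM), Tgfbr1 at 34.5 CPM in Old-OSK replicate 4 (next 54.8 CPM) and Smad7 at 17.4 CPM in Old replicate 2 (next 20.0 CPM). Gdf15 stood at 4.12 CPM in Old-OSK replicate 4 (next 3.62 CPM), Inha at 13.8 CPM in Young replicate 2 (next 8.10 CPM) and Tgfbi at 158 CPM in Old replicate 4 (next 34.4 CPM).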

How the results depend on the processing

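Old against Young called 2 of the 9 genes and 9 of the pathway list. Of all genes 9.56% were called. DESeq2 called 4 and 16 (15.4% of all genes), the letter M as a covariate left 5 of the list (3.76%), and leaving out both libraries that stood apart, chosen after seeing the data, left 4 of the list (3.89%). The 4 Young and 4 Old libraries with shared replicate numbers gave 0 and 0 with the replicate block (0% of all genes) and 0 and 1 without it (1.26%); these are also the libraries without M, which gave 0 and 1. Fewer Young libraries entered those fits, and the numbers did not pair Old with Young. Leaving out single libraries gave 2 to 3 of the 9 and 4 to 13 of the list, where 2.47% to 13.4% of all genes were called.

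Old-OSK against Old-Control called 0 and 0, and 0.728% of all genes. A mean of at least 50 counts gave 1 of the list (Itgb8) and 1.25% of all genes, DESeq2 2 and 11 (10.1%), the replicate block 0 and 4 (3.02%), the same libraries without the block 1 and 5 (6.49%), and leaving out both libraries that stood apart 3 and 22 (23.3%). Leaving out single libraries gave 0 to 3 and 0 to 18, where 0.0804% to 17.9% of all genes were called. Old-Control against Old called 0 and 0 in every setting run, where 0% of all genes were called. The cause of these differences between settings was not tested.

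Values that changed sign were all uncalled. Leaving out single libraries moved the log2 fold changes in Old against Young from -0.223 to 0.0179 for Tgfbr1 (0.00998 without Old replicate 1) and from -0.262 to 0.0410 for Bmp4, which was 0.0573 without both libraries that stood apart. In Old-OSK against Old-Control it moved Tgfb2 from -0.193 to 0.766 and Tgfb3 from -0.0739 to 0.169, with -0.0332 without Old-OSK replicate 3 and -0.0187 without Old-OSK replicate 4. In Old-Control against Old it moved Tgfbr1 from -0.199 to 0.0852, Bmp7 from -0.251 to 0.195, Tgfb2 from -0.483 to 0.502 and Bmp4 from -0.679 to 0.252. There Tgfbr1 was 0.150 with the letter M, 0.0649 with the replicate block and 0.0758 in the same libraries without it. Without both libraries that stood apart, Bmp7 was 0.0790, Tgfb2 -0.362 and Bmp4 0.0645. Genes of a few CPM, such as Fst, Inha and Gdf15, rest on few counts.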

Other observations

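Outside the naming rule, and chosen after their values were seen, the genes most like Tgfb2 over the 18 libraries were Unc5c (r = 0.977), Fat4 (0.975) and Dkk3 (0.974), and r stayed at 0.977, 0.974 and 0.983 after the group means were subtracted. Dkk3 is also on the Müller glia marker list. The genes most like Id1 were Fgfbp1 (0.967), Mapk13 (0.96) and Egln3 (0.959), with 0.953, 0.916 and 0.909 after subtraction. The libraries share groups and depth, and no p is given.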
